A study of Homo sapiens with 6 samples.

Results

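The MYC, MAX and MXD network was followed in clear cell sarcoma cells after knockdown of the fusion gene that defines this tumor. The genes were taken by symbol from a list of 10, namely MYC, MYCN, MYCL, MAX, MXD1, MXD3, MXD4, MXI1, MNT and MGA. Of these, 9 were among the 18118 genes of the counts table. MYCL had no row, and MYCN, with too few counts for the test, left 8 of 14571 tested genes. The cells were SU-CCS-1, an established human line of clear cell sarcoma in which EWSR1 is fused to ATF1 (EA1). All 6 libraries therefore came from 1 cell line with the fusion, and no group was free of it. The cells had been transfected for 48 h with a negative control siRNA (siNeg1) or with an siRNA against EA1 (siEA1-1 or siEA1-2), and each group had 2 libraries of polyadenylated RNA. The labels list siEA1-1 and siEA1-2 separately, whereas the methods of the study name 1 siRNA against EA1. Nothing in the labels says that the 2 libraries of a group came from separate cultures, so p values measure only the spread between these libraries.

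MYC, MYCN and MYCL are basic helix-loop-helix transcription factors that bind DNA as pairs with MAX, mostly at the E-box CACGTG, and raise the transcription of genes for ribosome assembly, metabolism and cell division. The MXD proteins, MXI1, MNT and MGA also pair with MAX and bind the same sequence. They bring in corepressors instead, so that the balance of both arms sets the output at shared targets. MXD genes are usually expressed in differentiating or resting cells, and MYC in dividing ones.

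Reads assigned to genes summed to between 5942808 and 7599305 counts per library, and 3 counts, taken as the smallest level that can be told from 0, amounted to 0.386 to 0.534 CPM, which are counts relative to the library total. This floor covers counting error only. Levels below are CPM after TMM scaling, which corrects the library totals for composition. Log2 fold changes (log2FC) and p values came from the quasi-likelihood test of edgeR, the p values were adjusted over all 14571 tested genes (Benjamini-Hochberg), and a gene was called at an adjusted p under 0.05. A positive log2FC stands for a higher level in siNeg1, the direction used in the study. Errors of a log2FC are standard errors, and errors of a level are SD over 2 libraries. The targeted gene ATF1 had 84.8 ± 3.72 CPM in siNeg1, 20.7 ± 0.661 with siEA1-1 and 22.02 ± 0.4272 with siEA1-2 (SD, n = 2 each), with every knockdown library under both siNeg1 libraries. EWSR1 had log2FC of 0.11 and 0.05 and was not called. The counts of ATF1 and of EWSR1 cannot be split between the fusion and the unrearranged gene. The fall of ATF1 therefore does not show how much of it was the fusion. The label of the cell line was checked on 8 melanocytic markers of clear cell sarcoma. All were in the table, and 7 were above 1 CPM in every library. The levels of the 8 markers summed to 2978 and 3175 CPM in siNeg1, 8679 and 8694 with siEA1-1, and 7664 and 12201 with siEA1-2. The skeletal muscle markers ACTA1, MYH7, DES and MYOD1 had no row. Of 5 immune markers only LYZ had a row, and it stayed between 2.49 and 6.43 CPM. Of the fibroblast markers, COL1A2, PDGFRA and DCN had no row. The others summed to 2.7 to 3.44 CPM in siNeg1 and to 8.89 to 23 CPM in the knockdown libraries. Keratinocyte markers, without a row for KRT5, stayed within 0.15 to 1.65 CPM. Endothelial markers, without a row for PECAM1, stayed within 0.771 to 2.95 CPM.

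The largest changes of the network lay in its repressor arm. MXD4 and MXI1 rose 2.56-fold to 4.86-fold with each EA1 siRNA, MYC fell with siEA1-2 and was not called with siEA1-1, and MAX, MXD1 and MGA were not called with either. With siEA1-1, 0 of the 8 tested members were called higher in siNeg1, against 20.3% of all tested genes, and 2 were called lower in siNeg1, against 19.9%. DESeq2 also called 0 higher, and 2 of the 8 had an unadjusted edgeR p under 0.05. With siEA1-2, 2 members were called higher in siNeg1, against 18.2% of all genes, and 3 lower, against 18.5%. For the mean of both EA1 siRNAs, 1 member was called higher and 3 lower, against 22.1% and 21.5%. With 8 genes, these counts cannot be read as a departure from the background, and what follows concerns the single genes. The median log2FC of the 8 members was -0.10 with siEA1-1 and -0.13 with siEA1-2, beside -0.02 and -0.00 over all tested genes. Both comparisons use the same siNeg1 libraries and are not independent of each other.

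**Figure D1:**
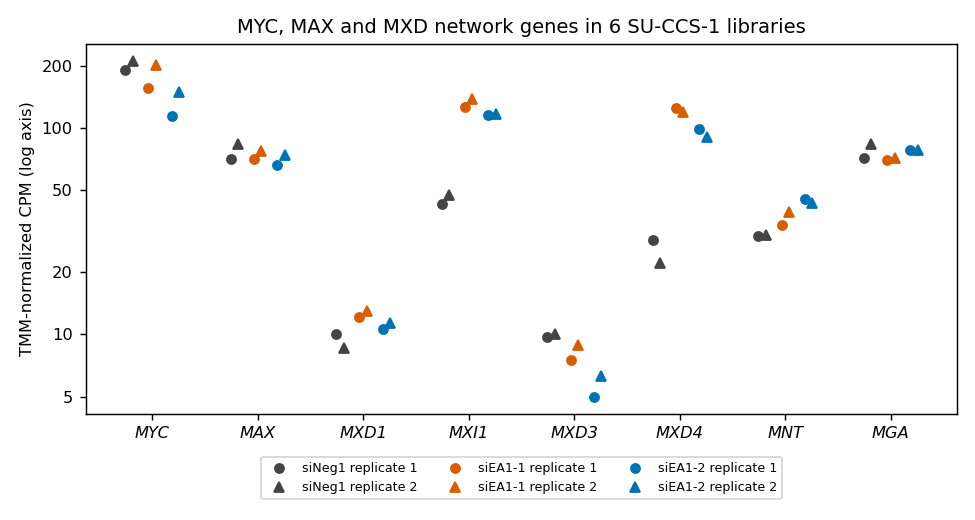
Level of each tested member in every library, as TMM-normalized CPM on a log axis; circles are replicate 1 and triangles replicate 2, grey for siNeg1, orange for siEA1-1 and blue for siEA1-2. MXD4 and MXI1 lie at 22.2 to 47.7 CPM in siNeg1 and at 90.8 to 138 CPM in the knockdown libraries, while for MAX and MGA each knockdown group overlaps the siNeg1 libraries.

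MYC (ENSG00000136997, chromosome 8 from 127735434 to 127742951 of hg38, plus strand), the main activator of the network, had 192.5 and 212 CPM in siNeg1, 157 and 203 with siEA1-1, and 114 and 149 with siEA1-2. Both siEA1-2 libraries were the lowest of the 6, whereas siEA1-1 replicate 2 lay between the siNeg1 libraries. MYC fell with siEA1-2, 1.53-fold, at a log2FC of 0.62 ± 0.15 (95% interval 0.29 to 0.94) and an adjusted p of 0.00693 by the edgeR test. With siEA1-1 the log2FC was 0.17 ± 0.15, its interval of -0.15 to 0.49 held 0, and the adjusted p was 0.384. This interval includes a decrease of up to 0.49 on the log2 scale. Between the siRNAs, the level with siEA1-2 was lower than with siEA1-1 by a log2FC of -0.44 (interval -0.77 to -0.12), with an adjusted p of 0.157 by edgeR, so a difference between the siRNAs was not called. With the replicate number as a block term this difference was called (-0.45 ± 0.0999, adjusted p 0.0175, edgeR), and the level was lower with siEA1-2 in both same-numbered pairs. The mean over both EA1 siRNAs was 0.39 ± 0.13 (adjusted p 0.0244, edgeR). This call was lost without siNeg1 replicate 1 (0.46, adjusted p 0.0578), without siNeg1 replicate 2 (0.35, adjusted p 0.141) and without siEA1-1 replicate 1 (0.31, adjusted p 0.085), all by edgeR. The call with siEA1-2 held in 13 of 13 alternatives, between 0.46 and 0.86. In bulk RNA, fewer cells that express a gene and less RNA per cell cannot be told apart, here and in every result below.

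Of the related activators, MYCN was at or near 0, and the level of MYCL is not known. MYCN, the family member known from neuroblastoma, had 0 counts in 5 libraries and 6 counts in siEA1-2 replicate 2, and MYCL had no row by symbol or identifier. MAX (ENSG00000125952, chromosome 14 from 65006174 to 65102695, minus strand), the partner that both arms need, had 70.8 and 84.3 CPM in siNeg1, 71.0 and 77.9 with siEA1-1, and 66.2 and 74.4 with siEA1-2. Its groups overlapped, and the intervals of its log2FC, -0.21 to 0.33 with siEA1-1 and -0.13 to 0.41 with siEA1-2, reach no further than 0.41 (adjusted p 0.722 and 0.405, edgeR). MAX shares 822 exon bases, 13.1% of its own, with FNTB, the beta subunit of farnesyltransferase, on the opposite strand. FNTB was called lower in siNeg1, at log2FC of -0.88 and -0.48 (adjusted p 0.000491 and 0.0225, edgeR). The library kit keeps the strand, but the sources used here do not say whether the counting used it, and the share of FNTB reads in the MAX counts was not tested.

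MXD4 (ENSG00000123933, chromosome 4 from 2247432 to 2262109, minus strand), a repressor that pairs with MAX and recruits SIN3, changed most of the 8 members. Its level was 28.6 and 22.2 CPM in siNeg1, 126 and 121 with siEA1-1, and 99.3 and 90.8 with siEA1-2. Every knockdown library lay above both siNeg1 libraries, and both siEA1-2 libraries lay under the siEA1-1 libraries. MXD4 rose 4.86-fold with siEA1-1 (log2FC -2.28 ± 0.13, adjusted p 3.91e-07, edgeR) and 3.75-fold with siEA1-2 (log2FC -1.91 ± 0.13, adjusted p 1.54e-06, edgeR). The level with siEA1-2 was lower than with siEA1-1 by -0.37 (interval -0.64 to -0.11, adjusted p 0.137, edgeR), which was not called. Both calls against siNeg1 held in 13 of 13 alternatives. The 250 bases before its start in RefSeq (GRCh38.p14, minus strand, chr4:2262110-2262359) are shown because MXD4 is the member that moved most and its upstream region holds an E-box, the site that the network's own proteins bind. The capitals mark CACGTG, whose first base lies 238 bases before the start.
MXD4: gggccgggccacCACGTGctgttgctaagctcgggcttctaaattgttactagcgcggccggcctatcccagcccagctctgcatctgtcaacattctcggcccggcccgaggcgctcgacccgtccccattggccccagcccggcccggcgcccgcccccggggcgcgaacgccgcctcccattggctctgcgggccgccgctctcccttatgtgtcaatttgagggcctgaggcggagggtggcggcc

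MXI1 (ENSG00000119950, chromosome 10 from 110207605 to 110287365, plus strand), the MXD family member also called MXD2, had 43.1 and 47.7 CPM in siNeg1, 127 and 138 with siEA1-1, and 116 and 117 with siEA1-2. The 4 knockdown libraries all lay above the siNeg1 libraries and close to each other. MXI1 rose 2.91-fold with siEA1-1 (log2FC -1.54 ± 0.11, adjusted p 1.28e-06, edgeR) and 2.56-fold with siEA1-2 (log2FC -1.36 ± 0.11, adjusted p 3.98e-06, edgeR). The siRNAs differed by -0.19 for this gene, with an interval of -0.41 to 0.04 and an adjusted p of 0.397 by edgeR. Both calls held in 13 of 13 alternatives. RefSeq gives 3 starts for MXI1, and the counts do not separate the isoforms that begin at each.

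MXD1 (ENSG00000059728, chromosome 2 from 69897688 to 69942945, plus strand), the founding MXD repressor, was among the lowest members with 67 counts in each siNeg1 library. Its levels were 10.03 and 8.61 CPM in siNeg1, 12.1 and 13.0 with siEA1-1, and 10.7 and 11.4 with siEA1-2. The knockdown libraries lay above both siNeg1 libraries, but the log2FC of -0.43 ± 0.22 with siEA1-1 (interval -0.92 to 0.06) and of -0.25 with siEA1-2 (interval -0.74 to 0.25) did not pass the edgeR test (adjusted p 0.151 and 0.432). At these counts a rise of the size seen for MXI1 lies outside both intervals.

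MXD3 (ENSG00000213347, chromosome 5 from 177301461 to 177312757, minus strand), the family member usually linked to dividing cells, took the opposite direction to MXD4 and MXI1. It had 9.73 and 10.03 CPM in siNeg1, 7.54 and 8.89 with siEA1-1, and 4.98 and 6.32 with siEA1-2. All 4 knockdown libraries lay under the siNeg1 libraries, and both siEA1-2 libraries lay under the siEA1-1 libraries. MXD3 fell 1.74-fold with siEA1-2 (log2FC 0.79 ± 0.27, adjusted p 0.0382, edgeR), while the log2FC of 0.27 with siEA1-1 was not called (interval -0.30 to 0.84, adjusted p 0.445, edgeR). The difference between the siRNAs was not called either (-0.53, adjusted p 0.376, edgeR). The call with siEA1-2 is weak: it held in 6 of 13 alternatives, with adjusted p from 0.0263 to 0.155 over the edgeR and DESeq2 fits, and was lost with DESeq2 (0.142), with only the 4 libraries compared (0.0616) and without any 1 of 5 libraries. MXD3 shares 926 exon bases (19.5%) with RAB24 on the same strand and 1148 (24.2%) with PRELID1 on the opposite strand. RAB24 had log2FC of 0.42 and 0.50 and PRELID1 of 0.27 and 0.16, and neither was called. The part of their reads in the MXD3 counts was not tested.

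MNT (ENSG00000070444, chromosome 17 from 2384073 to 2401104, minus strand), a repressor expressed in most cell types that counters MYC at shared targets, had 30.1 and 30.5 CPM in siNeg1, 34.0 and 39.2 with siEA1-1, and 45.6 and 43.2 with siEA1-2. The 3 groups were in separate ranges, with siNeg1 lowest and siEA1-2 highest. MNT rose 1.46-fold with siEA1-2 (log2FC -0.55 ± 0.14, adjusted p 0.00841, edgeR), while the log2FC of -0.27 with siEA1-1 was not called (interval -0.57 to 0.03, adjusted p 0.145, edgeR). The siRNAs differed by 0.28 (interval -0.02 to 0.58, adjusted p 0.33, edgeR), which was not called. The call with siEA1-2 was lost without siNeg1 replicate 2 (-0.53, adjusted p 0.057, edgeR) and held in the other 12 of 13 alternatives. MNT shares 1065 exon bases (12.2%) with a long noncoding RNA gene on the opposite strand that has no row in the table. Its upstream window is shown because it is the other member with an E-box there, 193 bases before the start (RefSeq, GRCh38.p14, minus strand, chr17:2401218-2401283, capitals mark CACGTG).
MNT: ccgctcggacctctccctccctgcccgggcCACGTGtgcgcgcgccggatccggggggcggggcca

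MGA (ENSG00000174197, chromosome 15 from 41621134 to 41773081, plus strand), a very large protein that pairs with MAX and is the scaffold of a polycomb repressive complex (PRC1.6), had 71.8 and 84.3 CPM in siNeg1, 70.1 and 71.97 with siEA1-1, and 78.5 in each siEA1-2 library. Each knockdown group overlapped the siNeg1 libraries. Its log2FC of 0.14 (interval -0.11 to 0.38) and -0.01 (interval -0.25 to 0.24) had adjusted p of 0.358 and 0.975 by edgeR, and the sign of the value with siEA1-2 changed with the scaling, to 0.01 with RLE size factors and 0.05 with library totals.

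**Figure D2:**
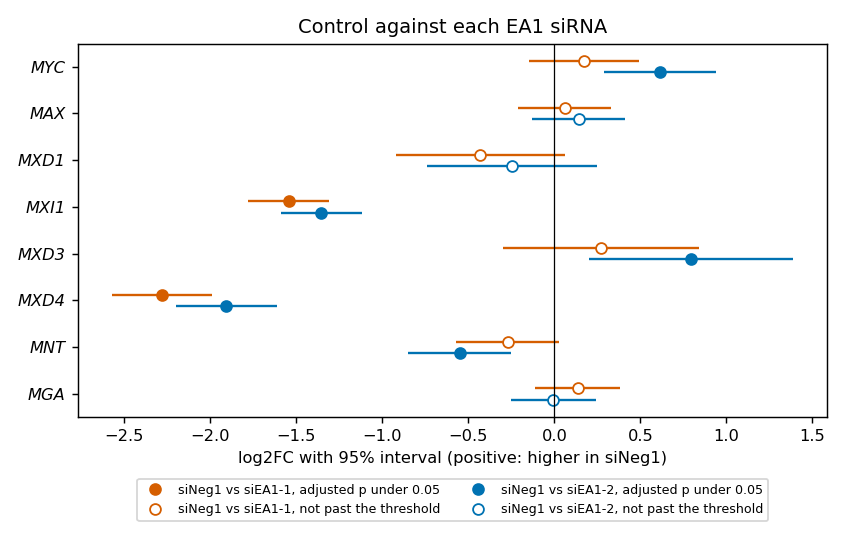
Log2FC of siNeg1 against each EA1 siRNA with its 95% interval for the 8 tested members; positive values are higher in siNeg1, and filled points have an adjusted p under 0.05. MXD4 and MXI1 lie between -2.28 and -1.36 with both siRNAs, and MYC, MXD3 and MNT have filled points with siEA1-2 alone, although none of these was called for the difference between the siRNAs without the replicate block.

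The test of the difference between siEA1-2 and siEA1-1 called 0 of the 8 members higher and 0 lower with siEA1-2, against 1.44% and 0.796% of all tested genes. MYC and MXD4 had an unadjusted edgeR p under 0.05 in it (0.0121 and 0.00928). DESeq2 called 0 of the 6 members to which it gave an adjusted p here, and it gave none to MXD1 and MXD3. With the replicate block, 1 member, MYC, was called lower with siEA1-2 (adjusted p 0.0175, edgeR). For MXD3 and MNT, which were called with siEA1-2 alone, no difference between the siRNAs was called with or without the block.

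Levels were compared between genes only per kilobase of exon, with all annotated exons of a gene merged. In siNeg1 MYC was the highest member, at 33.1 ± 2.31 CPM per kb, followed by MAX at 12.4 ± 1.53 and MXI1 at 7.69 ± 0.55 (SD, n = 2 each). MGA (3.89 ± 0.44), MXD4 (3.70 ± 0.653) and MNT (3.48 ± 0.0314) followed and did not differ beyond their spread, and MXD3 at 2.08 and MXD1 at 1.47 CPM per kb were lowest. With siEA1-1 MYC was still first at 29.5 ± 5.28, but MXI1 at 22.4 ± 1.34 and MXD4 at 17.9 ± 0.517 had passed MAX at 11.9 ± 0.783. With siEA1-2 MYC stood at 21.6 ± 4.06 and MXI1 at 19.7 ± 0.165 CPM per kb, which overlapped within their spread, before MXD4 at 13.8 ± 0.874 and MAX at 11.2 ± 0.925. The summed level of MXD4 and MXI1 was 0.364 and 0.325 of the MYC level in the siNeg1 libraries, 1.55 and 1.23 with siEA1-1, and 1.82 and 1.35 with siEA1-2. By these lengths, MXD4 and MXI1 together went from a lower level than MYC in both siNeg1 libraries to a higher one in all 4 knockdown libraries. With the longest transcript as length the ratios were 0.371 and 0.333 in siNeg1, 1.57 and 1.25 with siEA1-1, and 1.85 and 1.38 with siEA1-2. The ratio depends on the lengths of the isoforms in use, which were not determined. MXD4 and MXI1 are the members that rose most in these same libraries, so the ratio restates the levels above and is no further result. Of the summed network level, the MXD, MNT and MGA genes held 32.9% ± 1.61 in siNeg1, 55.7% ± 2.86 with siEA1-1 and 58.1% ± 4.19 with siEA1-2, and the MYC genes held 48.8% ± 0.453, 31.5% ± 3.07 and 27.6% ± 3.84 (SD, n = 2 each). MAX held 18.2% ± 1.16, 12.8% ± 0.212 and 14.3% ± 0.344. These are shares of RNA, not of protein. They are parts of a common sum, so a rise of repressor genes lowers the other shares. Among the repressor genes MXD4 and MXI1 rose most, so the shares too restate their levels. In siNeg1, with siEA1-1 and with siEA1-2, MNT had 3.48, 4.21 and 5.1 CPM per kb and MGA 3.89, 3.54 and 3.91. In the same order MXD1 had 1.47, 1.98 and 1.74, and MXD3 2.08, 1.73 and 1.19. The MAX share fell though MAX was not called with either siRNA, and the MYC share fell with siEA1-1, where MYC was not called.

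**Figure D3:**
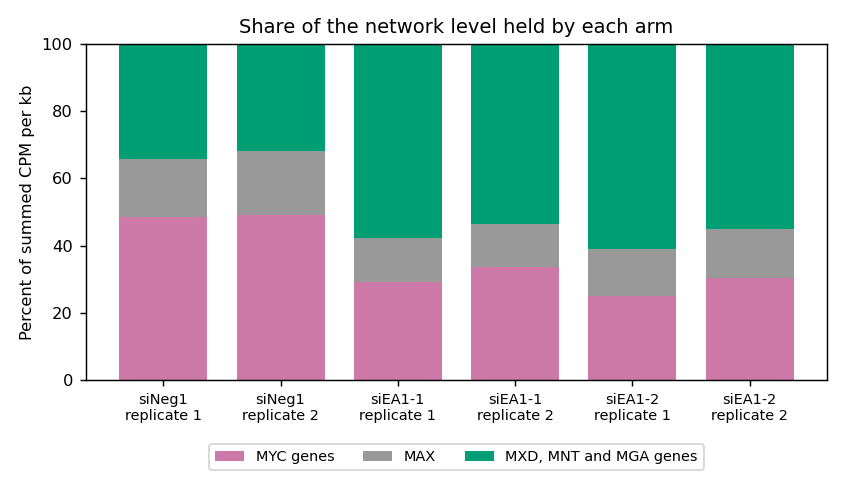
Share of the summed CPM per kb of the network held by the MYC genes, by MAX and by the MXD, MNT and MGA genes in each of the 6 libraries. The repressor share is 31.8 to 34.1% in the siNeg1 libraries and 53.7 to 61.1% in the 4 knockdown libraries.

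The sequence upstream of the members was searched on both strands, from 250 bases before to 50 after each RefSeq start, for the E-box CACGTG, the cAMP response element TGACGTCA with its core TGACG, which proteins of the ATF1 family bind, the AP1 site TGAGTCA, and the E2F sites TTTCGCGC, TTTGGCGC and TTTCCCGC. The full element contains the core. Of 35116 RefSeq promoters, 7.26% held the E-box, 1.85% the full response element, 24.6% the core, 4.95% the AP1 site and 2.74% any of the E2F sites. A window was at hand for 9 of the 10 listed members, all but MYC. MXD4 and MNT held the E-box, and none of the 9 held the full response element. MGA held the core 10 bases before 1 of its 3 starts and an E2F match before another, and MYCN held E2F letters. MXD3, the repressor that fell with siEA1-2, held the AP1 letters 79 bases before its start, shown here with the match in capitals (GRCh38.p14, minus strand, chr5:177312795-177312861). The windows of MAX, MXD1 and MXI1 held none of these letters. A match says nothing of binding, and no match says only that these letters are not in this window.
MXD3: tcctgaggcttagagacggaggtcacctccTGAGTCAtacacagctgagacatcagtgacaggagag

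For the parallel branch of the network, in which MLX takes the place of MAX, the list held its factors and the genes TXNIP and ARRDC4. Of the 4 tested genes, 2 were called with siEA1-1 (1 higher and 1 lower in siNeg1) and 3 with siEA1-2 (2 higher and 1 lower). Over all tested genes, 20.3% were called higher and 19.9% lower in siNeg1 with siEA1-1, and 18.2% and 18.5% with siEA1-2, the background for this and the lists that follow. MLXIP, a glucose-sensing partner of MLX, was 136 and 151 CPM in siNeg1, 344 and 391 with siEA1-1 and 333 and 361 with siEA1-2. It rose 2.55-fold and 2.42-fold (adjusted p 3.67e-06 and 6.78e-06, edgeR), with no overlap between control and knockdown libraries. MLX itself fell, with log2FC of 0.49 and 0.44 (adjusted p 0.00608 and 0.0114, edgeR), the second of which was lost without siNeg1 replicate 2 (adjusted p 0.0588, edgeR). TXNIP, a target of the MLX branch that limits glucose uptake, had 121 and 120 CPM in siNeg1, 96.6 and 105 with siEA1-1, and 51.3 and 74.7 with siEA1-2. It fell 1.91-fold with siEA1-2 (log2FC 0.93, adjusted p 0.000528, edgeR) and was not called with siEA1-1 (0.26, adjusted p 0.179, edgeR), where it was called with only the 4 libraries compared (0.28, adjusted p 0.0295) and without siEA1-2 replicate 1 (0.0274) or 2 (0.029). For TXNIP the difference between the siRNAs was called, at -0.67 and an adjusted p of 0.0442 by edgeR. ARRDC4, a relative of TXNIP, was not called (log2FC 0.47 and 0.09), and its siEA1-2 libraries stood far apart at 4.63 and 16.99 CPM. MLXIPL had no row.

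Of the corepressors that MXD proteins recruit, the SIN3 and NCOR complexes, 4 of 18 genes were called higher in siNeg1 with siEA1-1 and 2 with siEA1-2, at medians of 0.02 and -0.02. These are 22.2% and 11.1% of the list, against 20.3% and 18.2% of all tested genes. SAP18, a subunit of the SIN3 complex, fell 1.73-fold and 1.61-fold (adjusted p 0.000135 and 0.000442, edgeR), whereas SIN3A had log2FC of 0.03 and 0.16 and SIN3B of -0.29 and -0.18, none of them called. Among 12 partners of MGA in PRC1.6, 4 were called higher and 1 lower in siNeg1 with siEA1-1, and 3 and 0 with siEA1-2, at medians of 0.17 and 0.15. The called higher shares of 33.3% and 25% compare with 20.3% and 18.2% of all tested genes. PCGF6, the polycomb subunit particular to this complex, fell 2.06-fold and 1.76-fold (adjusted p 0.00366 and 0.0148, edgeR), and TFDP1, the pairing partner of E2F6, fell 1.78-fold and 1.32-fold (adjusted p 0.000301 and 0.0256, edgeR). For both genes the call with siEA1-2 was lost without siNeg1 replicate 2 (adjusted p 0.0922 for PCGF6 and 0.217 for TFDP1, edgeR) and with DESeq2 (0.0672 and 0.0528).

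Of 17 MYC cofactors, 5 were called higher and 1 lower in siNeg1 with siEA1-1, and 3 and 1 with siEA1-2, at medians of 0.05 and 0.07. The called higher shares of 29.4% and 17.6% compare with 20.3% and 18.2% of all tested genes, so the share with siEA1-2 was at the background. The histone acetyltransferase gene KAT2A fell 1.58-fold and 1.71-fold (adjusted p 0.00529 and 0.0023, edgeR), and RUVBL1, an ATPase of chromatin complexes, 1.68-fold and 1.46-fold (adjusted p 0.00226 and 0.0153, edgeR). The second RUVBL1 call was lost without siNeg1 replicate 1 (adjusted p 0.126, edgeR) and without siEA1-2 replicate 1 (0.0621). MYCBP2, a large ubiquitin ligase that binds MYC, rose 1.44-fold and 1.34-fold (adjusted p 0.00215 and 0.00912, edgeR), the second of which was lost without siNeg1 replicate 1 (0.0867), siNeg1 replicate 2 (0.0524) or siEA1-2 replicate 2 (0.057).

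Genes that act on the stability of the MYC protein were followed as a further list. Of these 19 genes, 9 were called higher and 1 lower in siNeg1 with siEA1-1, and 8 and 1 with siEA1-2, at medians of 0.33 and 0.30. FBXW7, the F-box protein that marks phosphorylated MYC for degradation, had 87.9 and 84.5 CPM in siNeg1, 35.8 and 34.9 with siEA1-1, and 45.2 and 51.4 with siEA1-2. It fell 2.43-fold and 1.78-fold (adjusted p 8.20e-06 and 0.000191, edgeR), with control and knockdown libraries in separate ranges. CIP2A, an inhibitor of the phosphatase that destabilizes MYC, had 78.6 and 90.8 CPM in siNeg1, 22.9 and 20.3 with siEA1-1, and 31.7 and 41.0 with siEA1-2, a 3.92-fold and 2.32-fold fall (adjusted p 2.86e-06 and 7.39e-05, edgeR). FBXO32, an F-box ubiquitin ligase, went the other way, from 29.3 and 28.4 CPM in siNeg1 to 121 and 118 with siEA1-1 and 96.3 and 99.3 with siEA1-2, a rise of 4.14-fold and 3.39-fold (adjusted p 2.31e-07 and 6.68e-07, edgeR). FBXW7 and CIP2A, which are known to act on MYC protein in opposite ways, therefore fell together in RNA, and protein was not measured.

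Of 17 tested regulators of MYC transcription or mRNA, 5 were called higher and 2 lower in siNeg1 with siEA1-1, and 6 and 2 with siEA1-2, at medians of 0.09 and 0.24. PVT1, the noncoding RNA gene next to MYC, had 121.5 and 154 CPM in siNeg1, 80.9 and 73.3 with siEA1-1, and 72.5 and 87.5 with siEA1-2. PVT1 fell with both siRNAs (1.79-fold and 1.72-fold, adjusted p 0.000498 and 0.000939, edgeR), while MYC was called with siEA1-2 alone. ELAVL1, an RNA-binding protein that acts on the stability and translation of many mRNAs, fell from 340 ± 29.6 CPM to 99.9 ± 2.68 and 135 ± 15.1 (SD, n = 2 each; adjusted p 8.02e-07 and 5.75e-06, edgeR). NFKB1 rose 1.5-fold and 1.53-fold (adjusted p 0.00206 and 0.00178, edgeR). CTNNB1, the coactivator of Wnt signaling, rose 1.24-fold with each siRNA (adjusted p 0.0409 and 0.0448, edgeR), but these calls were lost with RLE size factors (0.0541 and 0.0538) and when any 1 of several libraries was left out. CASC11 had no row.

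Most of the listed nucleolar targets of MYC fell. The lists were chosen with earlier results of these data known, so their shares are a description. Whether the fall followed from MYC, which was not called with siEA1-1, was not tested. Of 34 nucleolar and ribosome biogenesis genes known as MYC targets, 30 fell with siEA1-1 and 28 with siEA1-2, against 20.3% and 18.2% of all tested genes, none was called in the other direction, and the medians were 0.86 and 0.76, beside -0.02 and -0.00 over all tested genes. NOP56, a core protein of box C/D small nucleolar ribonucleoproteins, had 228 and 214 CPM in siNeg1, 70.0 and 58.5 with siEA1-1, and 77.1 and 81.8 with siEA1-2 (3.43-fold and 2.78-fold lower in knockdown, adjusted p 7.28e-07 and 2.81e-06, edgeR). Its partner NOP58 fell 2.66-fold and 2.35-fold (adjusted p 1.47e-05 and 4.60e-05, edgeR). POLR1A, UBTF, DDX18 and FBL were not called with either siRNA. The count with siEA1-1 was 21 to 26 in 5 of 13 alternatives and 30 to 31 in the other 8, and that with siEA1-2 was 24 to 30.

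The metabolic and growth targets were more mixed. Of 33 tested, 20 were called higher and 2 lower in siNeg1 with siEA1-1, and 16 and 3 with siEA1-2, at medians of 0.49 and 0.35. ODC1, the rate-limiting enzyme of polyamine synthesis and a classical MYC target, had 378 and 407 CPM in siNeg1, 74.4 and 81.4 with siEA1-1, and 76.2 and 90.3 with siEA1-2. It fell 5.05-fold and 4.71-fold (adjusted p 1.66e-07 and 2.77e-07, edgeR). CDC25A, a phosphatase that drives entry into S phase, had 64.4 and 84.3 CPM in siNeg1, 13.1 and 12.2 with siEA1-1, and 22.1 and 31.2 with siEA1-2. It fell 5.88-fold and 2.78-fold (adjusted p 2.76e-06 and 8.95e-05, edgeR), and its difference between the siRNAs was called (1.08, adjusted p 0.0248, edgeR). Both chains of the large neutral amino acid transporter rose instead. SLC7A5, the transporting chain, had 1603 and 1655 CPM in siNeg1, 2575 and 2690 with siEA1-1, and 3285 and 3002 with siEA1-2, a 1.62-fold and 1.93-fold rise (adjusted p 0.000512 and 6.73e-05, edgeR). SLC3A2, the heavy chain, rose 1.28-fold and 1.48-fold (adjusted p 0.0376 and 0.00359, edgeR), and both calls were lost without siNeg1 replicate 2 (0.392 and 0.0746), the first also without siEA1-1 replicate 1 (0.126) or 2 (0.161). CCND2 had no row, and TERT, with 0 CPM in every knockdown library, was too low for the test.

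ODC1 and SLC7A5, which took opposite directions, both have an E-box before their start, 29 and 130 bases upstream. Both windows are from RefSeq (GRCh38.p14, minus strand, chr2:10448013-10448071 for ODC1 and chr16:87869602-87869667 for SLC7A5), with CACGTG in capitals. Counted after the data were seen, an E-box lay in the promoter window of 13 of 27 nucleolar target genes with a RefSeq entry (48.1%) and 17 of 31 metabolic and growth targets (54.8%), beside 1309 of 10319 tested genes (12.7%). Genes come to be known as MYC targets partly through their E-boxes, so these shares describe the lists and not the response to knockdown. The share was 2 of 8 for the members, 2 of 5 for the MLX branch, 1 of 16 for the corepressors and 2 of 12 for the partners of MGA. It was 3 of 13 for the cofactors, 4 of 15 for the turnover genes, 1 of 13 for the regulators of MYC and 1 of 8 for the repressed targets. For the proliferation and interferon response genes described below it was 2 of 16 and 1 of 12.
ODC1: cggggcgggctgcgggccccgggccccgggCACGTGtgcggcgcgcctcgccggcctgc
SLC7A5: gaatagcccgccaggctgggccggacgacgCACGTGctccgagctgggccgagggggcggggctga

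Of 13 tested genes known to be held down by MYC, 7 were called lower and 2 higher in siNeg1 with siEA1-1, and 5 and 2 with siEA1-2, at medians of -0.78 and -0.36. NDRG1, a gene of stress and differentiation, had 56.6 and 52.1 CPM in siNeg1, 220 and 287 with siEA1-1, and 160 and 229 with siEA1-2, a 4.66-fold and 3.59-fold rise (adjusted p 3.19e-06 and 1.44e-05, edgeR). CEBPD rose 4.62-fold and 2.67-fold (adjusted p 2.34e-05 and 0.000879, edgeR). The list also held the largest fall with siEA1-1 among the genes named here. CCND1, the cyclin of early G1, had 1305 and 1379 CPM in siNeg1, 98.3 and 96.3 with siEA1-1, and 99.5 and 206 with siEA1-2, a 13.8-fold and 8.75-fold fall (adjusted p 1.06e-06 and 3.97e-06, edgeR). CDKN1A, the cell cycle inhibitor p21, also fell, 1.82-fold and 1.81-fold (adjusted p 0.00228 and 0.00289, edgeR). CDKN1B, which encodes the inhibitor p27, had log2FC of -1.10 and -0.88 (adjusted p 2.75e-05 and 0.000201, edgeR), so the cell cycle inhibitors of the list did not move as a group. CEBPA had no row.

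**Figure D4:**
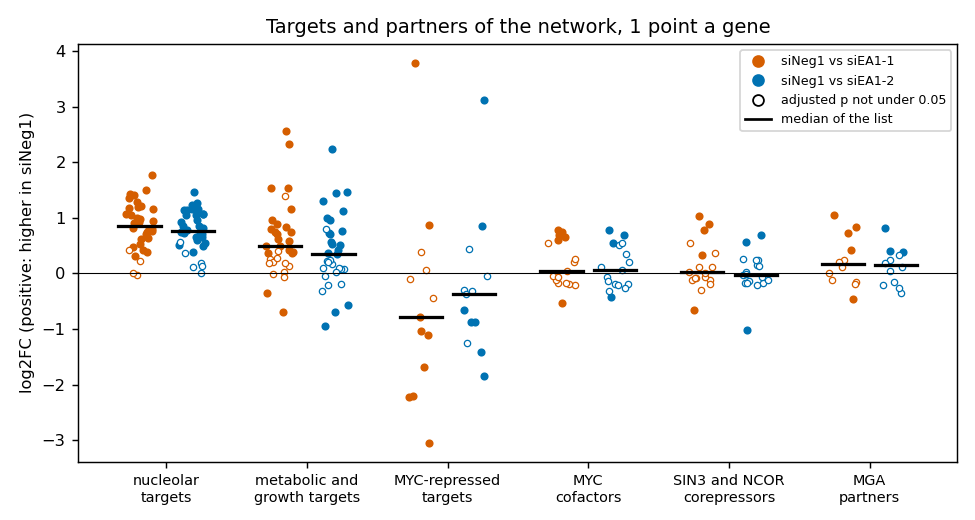
Log2FC of siNeg1 against siEA1-1 (orange) and siEA1-2 (blue) for the tested genes of 6 lists, 1 point a gene, filled where the adjusted p was under 0.05, with the median of each list as a bar. The nucleolar targets have medians of 0.86 and 0.76, with every called gene above 0, the MYC-repressed targets have medians of -0.78 and -0.36, and the cofactors, corepressors and partners of MGA have medians between -0.02 and 0.17.

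Genes of cell division and of the interferon response changed alongside the network. Of 19 proliferation genes, 18 were called higher in siNeg1 and 0 lower with each EA1 siRNA, at medians of 1.35 and 0.91. CCNE2, a cyclin of the G1/S transition, had 40.4 and 50.5 CPM in siNeg1, 5.40 and 8.56 with siEA1-1, and 7.48 and 21.3 with siEA1-2 (adjusted p 0.000155 and 0.00311, edgeR). RRM2, a subunit of ribonucleotide reductase, fell 4.66-fold and 2.61-fold (adjusted p 4.71e-06 and 0.000118, edgeR), and its difference between the siRNAs was called at an adjusted p of 0.0496 by edgeR (log2FC 0.84). Of 16 tested interferon response genes, 12 were called higher in siNeg1 with siEA1-1 and 15 with siEA1-2, none lower, at medians of 1.06 and 1.49. OAS2, a sensor of double-stranded RNA, had 68.9 and 56.6 CPM in siNeg1 and between 5.60 and 14.4 in the knockdown libraries (adjusted p 5.11e-05 and 9.83e-05, edgeR). ISG15, a ubiquitin-like modifier, had 46 and 18 counts in siNeg1, 11 and 1 with siEA1-1, and 2 and 3 with siEA1-2. Its calls were lost without siNeg1 replicate 1 (adjusted p 0.339 and 0.12, edgeR), and the first also without siEA1-1 replicate 2 (0.188). Their part in the levels of the network and its targets was not tested.

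Over 9792 genes with a symbol and a mean of at least 10 CPM, the patterns most like that of MYC over the 6 libraries, by the root mean square distance of centred log2 CPM, were those of PIBF1 (0.057), GRAMD4 (0.059) and METTL26 (0.062). PIBF1 had 21.7 and 25.6 CPM in siNeg1, 18.9 and 22.4 with siEA1-1, and 12.3 and 17.1 with siEA1-2. In GRAMD4 the same order of the libraries was seen, at 23.3 and 27.8, 19.2 and 23.9, and 14.6 and 17.4 CPM. METTL26 was not called with either siRNA (adjusted p 0.695 and 0.0876, edgeR), though it was with siEA1-2 when siEA1-2 replicate 2 was left out (0.0164) and with the replicate block (0.48, adjusted p 0.0317, edgeR). The patterns most like that of MXD4 were those of PLXNC1 (0.090), FBXO32 (0.142) and CYP27A1 (0.157). PLXNC1, a semaphorin receptor, had 119 and 92.2 CPM in siNeg1, 442 and 441 with siEA1-1, and 408 and 361 with siEA1-2, a 4.19-fold and 3.65-fold rise (adjusted p 6.70e-07 and 1.53e-06, edgeR). CYP27A1, a mitochondrial sterol hydroxylase, rose 3.91-fold and 3.65-fold (adjusted p 1.06e-06 and 1.78e-06, edgeR). These genes were picked for their likeness over the same 6 libraries, which share their depth and scaling, so their values are a description.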

How the data were processed

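The 6 RNA-seq libraries of SU-CCS-1 were grouped by the sample labels into siNeg1, siEA1-1 and siEA1-2 with 2 libraries each. The authors used BWA-MEM (not a spliced aligner) on hg38 and featureCounts 1.6.3, and they deposited raw counts per gene, not normalized and not pooled. The annotation and the strand setting are not given in the sources used here.

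Starting from these counts, edgeR 4.0.16 (R 4.3.3) kept 14571 of 18118 genes (filterByExpr by group, minimum count 10, minimum total count 15) and fitted 3 groups with TMM scaling, at a common biological coefficient of variation of 0.109. Library totals were 5942808 to 7599305 counts. Standard errors and 95% intervals were taken from the F statistic and are not adjusted. CPM used no prior count, and log2 CPM for likeness used a prior count of 2. Exon lengths, coordinates and overlaps came from GENCODE release 44 (18063 identifiers matched), and promoter sequences from RefSeq. The members and lists were chosen with earlier results of these data known.

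Named genes were all members in the table, the targeted genes, lists of 6 genes or fewer in whole, up to 2 genes per direction and list with the largest mean log2FC among genes that passed with both EA1 siRNAs and showed no overlap between control and knockdown libraries, and the 3 genes most like MYC and MXD4. Other genes, such as SIN3A, SIN3B, CDKN1B and the uncalled nucleolar genes, were named after their values were seen. The result of 1 gene that the rule names is not reported here. Replicate numbers come from the labels, which do not say that a number marks a shared day or batch. Deviations of same-numbered libraries from their group means correlated at 0.13 (siNeg1 and siEA1-1), 0.199 (siNeg1 and siEA1-2) and 0.144 (both EA1 siRNAs) over all tested genes, each above 0.1, so values with the block are given where they change a call, a choice made after its effect was seen. Alternatives were no filter, a minimum of 10 counts in all libraries, RLE size factors, a replicate block, DESeq2 1.42.0 over 3 groups, only the 4 libraries compared, each library left out, the longest transcript as length and, added after seeing the data, library totals. The fit was tested on 1 draw of simulated counts for 14151 genes. In it 250 genes were changed for siEA1-1 and for the mean, 200 for siEA1-2 and 50 between the siRNAs. Of the simulated calls, 6.77% were false for siEA1-1, 8.74% for siEA1-2 and 8.81% for their mean. For the difference between the siRNAs 16.7% (of 60) were false, and all these shares were above the 5% aimed at. More genes were called in the data than were changed in the simulation, so the false shares in the data may differ.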

Additional observations from a re-analysis of the deposited data

Results flagged for a closer look

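Of the genes named above, 4 differed between the EA1 siRNAs by the edgeR test of the difference, and none of them is a member of the network. TXNIP was lower with siEA1-2 than with siEA1-1 (-0.67, adjusted p 0.0442, edgeR), with both siEA1-2 libraries under both siEA1-1 libraries. CIP2A (0.76, adjusted p 0.0379, edgeR), CDC25A (1.08, adjusted p 0.0248, edgeR) and RRM2 (0.84, adjusted p 0.0496, edgeR) were higher with siEA1-2, again with no overlap between the siRNAs. These calls lie close to the threshold. The CDC25A call held in 11 of 13 alternatives, and those of TXNIP, CIP2A and RRM2 in 6 of 13 each, with the highest adjusted p at 0.248, 0.356, 0.35 and 0.293, all without siEA1-1 replicate 2. Of the calls of this comparison on simulated counts, 16.7% were false. That was a single draw with 50 changed genes, so the share need not hold for these calls. Of the proliferation genes, 4 of 19 were called higher with siEA1-2 than with siEA1-1, against 1.44% of all tested genes.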

How the results depend on the processing

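The calls of MXD4 and MXI1 with each EA1 siRNA and for their mean held in every alternative, as did that of MYC with siEA1-2. Members called higher in siNeg1 with siEA1-2 went from 2 to 1 with DESeq2 and with only the 4 libraries compared, and to 1 to 2 with each library left out, through the loss of MXD3. For the mean of the siRNAs this count was 0 to 2 with each library left out. The mean call of MNT was lost with DESeq2 (adjusted p 0.0799) and without siNeg1 replicate 1, siNeg1 replicate 2 or siEA1-1 replicate 2 (0.087, 0.108 and 0.0803, edgeR), and MXD3 was called for the mean without siEA1-2 replicate 2 (0.65, 0.0458). PIBF1 lost its call with siEA1-2 with DESeq2 (0.0574) and without siEA1-2 replicate 1 or siNeg1 replicate 2 (0.118 and 0.123), and GRAMD4 without the same libraries (0.0645 and 0.104).

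Among the members and named genes, signs turned only for small values that were not called. With each library left out, their ranges were -0.00 to 0.39 for MYC and -0.04 to 0.18 for MAX with siEA1-1, -0.18 to 0.00 for MAX between the siRNAs, -0.09 to 0.10 for MGA with siEA1-2 and -0.02 to 0.18 for its mean, -0.51 to 1.37 for ARRDC4 and -0.05 to 0.16 for EWSR1 with siEA1-2, and -0.06 to 0.31 for METTL26 with siEA1-1. MGA with siEA1-2 also turned with RLE size factors (0.01), DESeq2 (0.00) and library totals (0.05). ARRDC4 was called with siEA1-2 without siEA1-2 replicate 2 (1.37, adjusted p 0.00665, edgeR).

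Per longest transcript, MAX held 21.2%, 15% and 16.8% of the network level in siNeg1, siEA1-1 and siEA1-2, and the MYC genes 47.1% in siNeg1. Of all tested genes, 210 were called higher and 116 lower with siEA1-2 than with siEA1-1, against 330 higher with DESeq2, 124 higher with library totals, and 105 and 71 with only the 4 libraries compared. With each library left out these counts were 20 to 471 and 13 to 317, and members called lower with siEA1-2 were 0 to 1, MYC being called without siEA1-2 replicate 2 (-0.66, adjusted p 0.0131, edgeR). Genes called lower in siNeg1 were 1892 to 3075 with siEA1-1, 1767 to 2543 with siEA1-2 and 2030 to 3146 for the mean. DESeq2 gave no adjusted p for the difference between the siRNAs in MXD1 and MXD3. The causes were not tested.

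In the fit with a replicate block, 530 and 323 genes were called between the siRNAs, and 1 member, MYC, was called lower with siEA1-2 (-0.45, adjusted p 0.0175, edgeR). METTL26 was called with siEA1-2 (0.48, adjusted p 0.0317, edgeR), and the block changed no other call of a member and of no other named gene against siNeg1.

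With 2 libraries a group, the intervals given show what size of change could be told from 0, and they were widest among the members for MXD1 and MXD3, which had 28 to 85 counts per library.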
